A study of Mus musculus with 11 samples.

Results

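The comparison described here set 3 libraries of tumour-associated macrophages (TAMs) against 3 libraries of mammary tissue macrophages (MTMs), sorted from the mammary tumours of 3 control mice. They are 6 of the 11 libraries of the series, and their labels, not their values, assign them to the groups. Each of the mice, numbered 1, 3 and 5, gave 1 TAM and 1 MTM library, so the cell types are paired by animal. All 17475 genes of the deposited table were compared. The question, as the design states it, is how gene expression differs between these macrophage populations of a tumour.

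The mice were females carrying PyMT, the polyoma middle T oncogene that causes mammary tumours, on a strain backcrossed to B6. They were irradiated at 7 weeks of age, received wild-type B6 bone marrow cells (3 M, M for mega), and ate a low protein diet for 6 weeks from 2 weeks after that. Every library of the series comes from that diet, so its effect cannot be told apart from the rest of the setting. The MYC mice (2, 4 and 6), used here only beside the control values, also carried S100a8-cre and Rosa26-LSL-MYC, a MYC transgene opened by Cre from the promoter of S100a8, a gene of neutrophils and monocytes. They too had received wild-type marrow, and the labels do not say which macrophages were of donor origin. All cells were gated as DAPI-, CD45+, SiglecF-, Ly6G-, B220-, Ly6C- and F4/80+. TAMs were then Vcam+, and MTMs Vcam- and FOLR2+.

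Tissue macrophages of the mammary stroma sit around ducts, vessels and nerves. They take up debris, proteins and hyaluronan through scavenger and lectin receptors such as CD163, the mannose receptor CD206 and LYVE1, and the folate receptor FOLR2 marks them. Macrophages within the tumour parenchyma are known to be replaced from blood monocytes. In mouse mammary tumours they carry VCAM1, and the integrin CD11c (Itgax) is a usual marker. FOLR2 and VCAM1 defined the gate, so Folr2 and Vcam1 check the sort and are no findings.

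The control libraries held an estimated 37.2 to 41.1 M reads in genes. Levels are the deposited log2 values, which behave as the log2 of 1 plus a depth- and length-scaled read number. On that scale a gene without a read is listed at a small value of its own, the same in every library, and not at 0. Differences are TAM minus MTM on that log2 scale with the standard error (SE) of the model, they understate changes of genes near 0, and levels are listed in the order of mice 1, 3 and 5. In a principal component analysis of the 6 libraries, the first component took 46.0% of the variance and separated TAMs from MTMs. The second took 19.2% and set mouse 1 (29.6 for its TAMs and 18.3 for its MTMs) apart from mouse 3 (-23.1 and -27.9), with mouse 5 near 0. Among the MTM libraries, mouse 3 lay nearest to the TAMs on the first component, at 15.5 against 43.2 and 33.0. In such bulk libraries, fewer cells of a type and less RNA per cell cannot be told apart.

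TAMs and MTMs differed at 414 of 17475 genes (2.37%) by limma with Benjamini-Hochberg adjustment and a threshold of 0.05. Of these, 130 were higher in TAMs (0.744% of all genes) and 284 were lower (1.63%). The falls were larger than the rises. A difference of 3 or more in size was seen at 50 of the lower genes and at 3 of the higher ones, and the median differences were -1.57 and 1.20. The genes lower in TAMs had a median level of 1.44 in TAMs and 3.84 in MTMs. Those higher in TAMs had a median of 3.71 in TAMs and 2.27 in MTMs. Each of the 414 moved the same way in 3 of 3 mice, with no overlap between the TAM and MTM libraries. Without overlap stood 18.9% of all genes, 6.9% with TAMs above and 12% with TAMs below. Taking the mouse as a fixed block, 255 genes passed, namely 86 higher and 169 lower, and with the spread taken from the 6 control libraries alone 196 passed. With the mouse as a block in those 6 libraries alone, the paired model called 0 genes, with 2481 at an unadjusted p under 0.05. Of the genes described here without a loss of their call to a left-out library or to the block in all libraries, F7, F10, Fn1, Fcgrt, Gpnmb, Atp6v0d2, Hpse, Mmp2, Ltb4r1, Haao, H2-Oa, Il1r2, Klrb1b, Tnfsf8, Cd209e and Dcstamp did not pass in the 6 libraries without the block (adjusted p = 0.0515 to 0.115). Haao also lost its call with a pseudocount of 0.1 (adjusted p = 0.073). Losses under other scalings, pseudocount, filter and variance settings are not listed for every gene. Leaving out the TAM library of mouse 1 left 214 genes, the MTM library of mouse 1 left 234, and the MTM library of mouse 5 left 218.

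**Figure D1:**
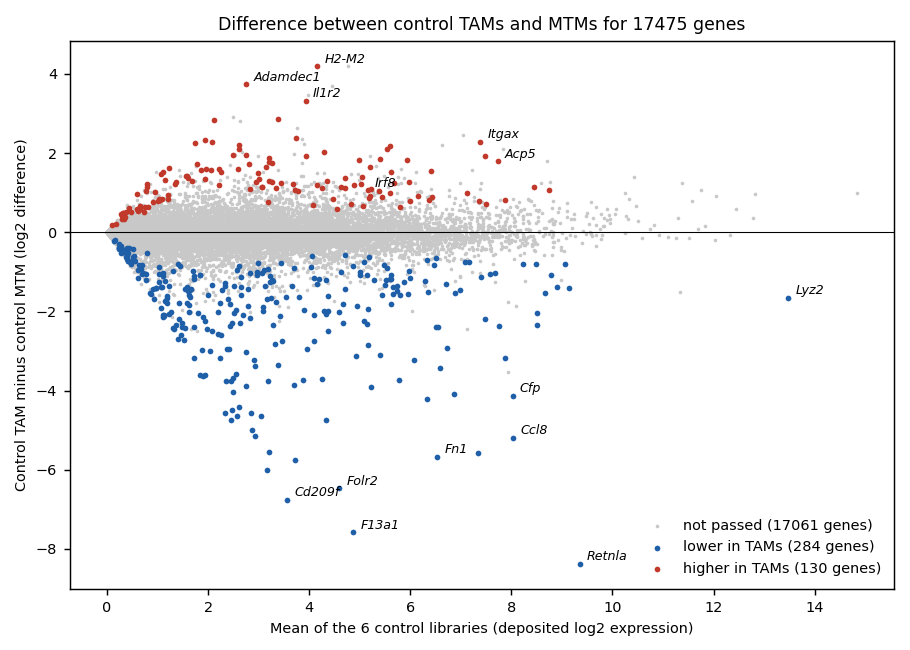
Each point is 1 of 17475 genes, with its mean deposited log2 level over the 6 control libraries on the horizontal axis and the TAM minus MTM difference (log2) on the vertical axis. The 284 genes lower in TAMs (blue) reach from near 0 down to -8.37 for Retnla, while the 130 higher genes (red) reach up to 4.19 for H2-M2.

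Genes that mark macrophages in general were high in both populations. Csf1r, the receptor for the growth factor that keeps macrophages alive, stood at 10.74, 10.43 and 10.25 in TAMs and 10.24, 10.01 and 9.91 in MTMs. Emr1, which encodes F4/80, stood at 9.93, 9.40 and 9.56 and 9.54, 9.96 and 9.61, and C1qb, a chain of complement C1q, at 12.23, 11.69 and 11.81 and 11.77, 11.76 and 11.71. None of the 3 passed the test (adjusted p = 0.466, 1 and 0.978, limma). The gate genes followed the sort. Folr2 stood at 0.96, 1.37 and 1.77 in TAMs and 7.77, 8.05 and 7.67 in MTMs, and Vcam1 at 8.60, 7.64 and 8.57 and 5.31, 6.86 and 5.25. The Vcam1 libraries did not overlap, but the MTM library of mouse 3 lay well above the other MTM libraries, and the adjusted p was 0.0501. The erythroid and platelet genes Pf4 and Ppbp, the T cell gene Cd2 and some monocyte and dendritic cell genes that passed are given with their groups.

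Other cells left RNA in these libraries. Mammary epithelial genes were present in both populations, as with Krt8 at 7.11, 8.39 and 7.26 in TAMs and 6.61, 7.63 and 7.03 in MTMs. None of the 31 measured epithelial markers passed, and the list's median difference was 0.28. T and NK cell genes were more abundant in TAM libraries: 18 of 33 measured markers lay higher without overlap (against 6.9% of all genes). The list's median difference was 0.55, and its mean level was 1.36 to 2.02 in TAMs and 0.91 to 1.13 in MTMs. None passed as higher. Cd3d, a chain of the T cell receptor complex, stood at 3.42, 2.15 and 2.27 in TAMs and 1.23, 1.31 and 1.19 in MTMs (adjusted p = 0.054). Monocyte markers leaned the other way, with a mean level of 2.14 to 2.27 in TAMs and 2.94 to 3.60 in MTMs. No member of the fibroblast (25 measured), endothelial (19), adipocyte (13), B and plasma cell (13) or eosinophil and mast cell (12) lists passed.

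**Figure D2:**
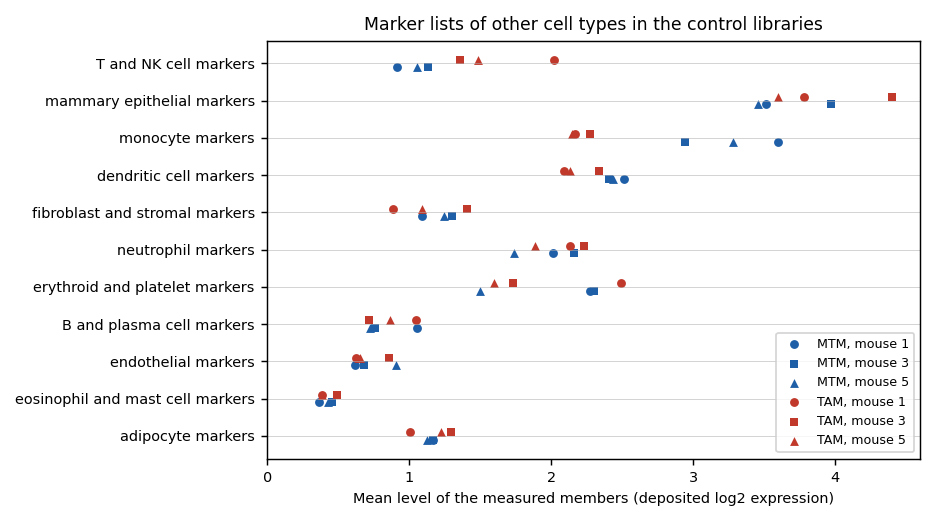
Each point is the mean deposited log2 level of the measured members of a marker list in 1 control library, red for TAMs and blue for MTMs, with the shape giving the mouse. The T and NK cell list lies higher in all 3 TAM libraries (1.36 to 2.02) than in the MTM libraries (0.91 to 1.13), and the monocyte list lies lower (2.14 to 2.27 against 2.94 to 3.60).

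Genes of tissue-resident macrophages made the clearest group. Of 33 measured, 22 were lower in TAMs (against 1.63% of all genes), none was higher, and 27 lay lower without overlap (against 12% of all genes). Both counts hold the gate gene Folr2. The gate took MTMs by FOLR2, a marker of such macrophages, and the list was chosen with earlier results of these data known. The counts thus describe the sorted populations and are no independent test of them. The list's median difference was -2.71 against 0.00 over all genes. Retnla encodes RELM-alpha, a secreted protein of alternatively activated macrophages, and stood at 5.20, 5.09 and 5.22 in TAMs and 13.98, 13.23 and 13.41 in MTMs, a difference of -8.37 ± 0.76 (SE; adjusted p = 0.000506). It was among the most abundant transcripts of MTMs, and the TAM libraries were close to each other at a far lower level. F13a1, the A chain of clotting factor XIII and a marker of resident macrophages, stood at 1.08, 0.92 and 1.24 in TAMs and 9.19, 7.80 and 8.98 in MTMs (-7.58 ± 0.35, adjusted p = 1.69e-05). Cd163, the scavenger receptor for haemoglobin bound to haptoglobin, stood at 0.32, 0.54 and 0.42 and 6.95, 4.82 and 6.14 (-5.54 ± 0.51, adjusted p = 0.000506). The TAM libraries were all under 1 for Cd163, and the lowest MTM library was again that of mouse 3. Ednrb, an endothelin receptor, stood at 0.05, 0.15 and 0.03 in TAMs and 5.56, 3.82 and 5.08 in MTMs (-4.75 ± 0.39, adjusted p = 0.000354).

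Other scavenging and clearance receptors behaved likewise. Vsig4, a complement receptor of resident macrophages that captures particles from blood, had no read in any TAM library and levels of 3.83, 4.12 and 2.98 in MTMs (adjusted p = 0.000652). With 3 reads per TAM library as the limit that a count of 0 allows, it was at least 177-fold lower in TAMs. Timd4, a receptor for phosphatidylserine on dying cells, stood at 0.31, 0.17 and 0.09 in TAMs and 2.37, 2.90 and 2.32 in MTMs (-2.35 ± 0.20, adjusted p = 0.000363). Fcgrt, which recycles antibody and albumin, stood at 6.86, 5.98 and 6.28 and 8.78, 8.06 and 8.87 (-2.20 ± 0.30, adjusted p = 0.0043) and so stayed well expressed in TAMs. Lyve1, the hyaluronan receptor, stood at 0.13, 0.02 and 0.07 in TAMs and 4.66, 2.97 and 3.53 in MTMs (-3.64 ± 0.39, adjusted p = 0.00116). Mrc1, the mannose receptor CD206, stood at 4.31, 4.42 and 4.67 and 7.80, 7.57 and 7.71 (-3.23 ± 0.33, adjusted p = 0.000935). These last 2 were picked for description after their values were seen. Of 46 efferocytosis and scavenger genes measured, 7 (15.2%) were lower and 1 (2.17%) was higher, against 1.63% and 0.744% of all genes. The higher one was the integrin chain Itgb5 at 0.87 ± 0.14 (adjusted p = 0.0128). That call was lost without any 1 of the TAM libraries of mice 1 and 3 or any 1 of the MTM libraries of mice 1 and 5 (adjusted p up to 0.0589). Stab1, picked after its values were seen, is a scavenger receptor that many resident macrophages share. It stood at 6.76, 6.24 and 6.44 in TAMs and 6.92, 6.86 and 6.46 in MTMs and did not pass (adjusted p = 0.918).

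**Figure D3:**
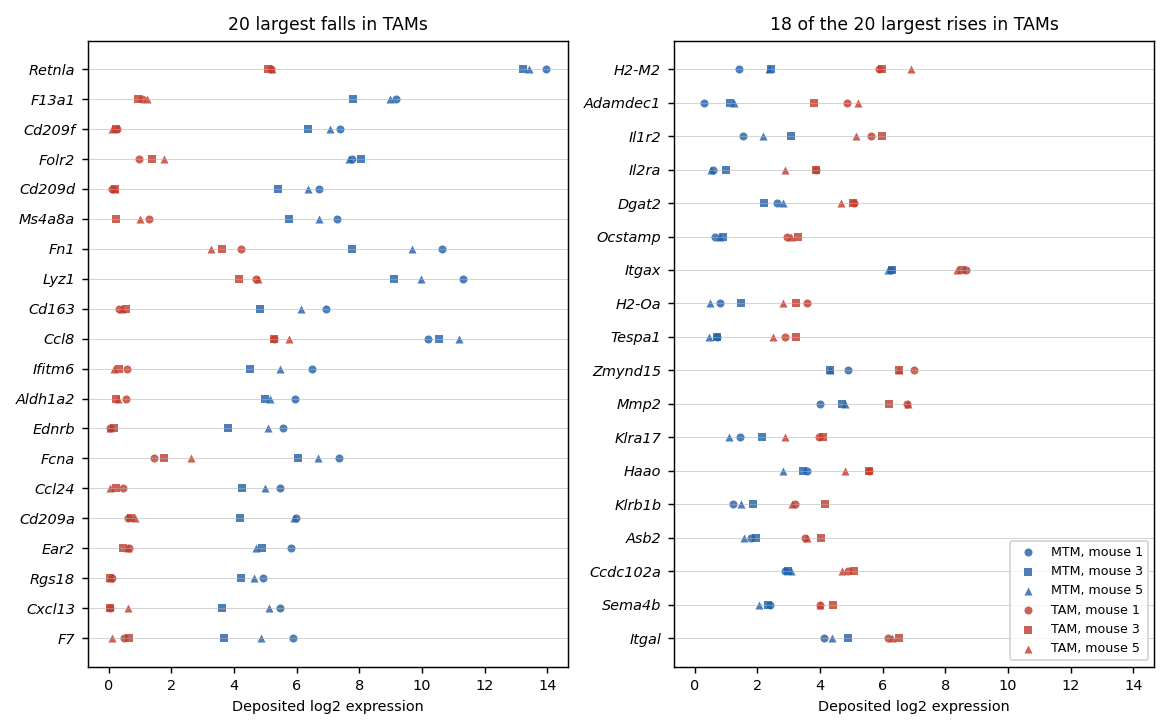
Deposited log2 level of the 20 named genes with the largest falls in TAMs (left) and of 18 of the 20 with the largest rises (right) in each control library, red for TAMs and blue for MTMs, with the shape giving the mouse. No gene overlaps between the cell types, as the choice required, and on the left most TAM libraries lie below 2, with Folr2 being a gate gene.

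The C-type lectin receptors, which bind sugars on microbes and glycoproteins, followed. Of 33 measured, 14 were lower (42.4%, against 1.63% of all genes) and 1 was higher (3.03%, against 0.744%). The lower ones included 5 members of the Cd209 family, the mouse relatives of human DC-SIGN. Cd209f stood at 0.25, 0.22 and 0.10 in TAMs and 7.39, 6.37 and 7.06 in MTMs (-6.75 ± 0.27, adjusted p = 8.68e-06), and Cd209d at 0.11, 0.19 and 0.20 and 6.72, 5.42 and 6.35 (-5.99 ± 0.30, adjusted p = 2.77e-05). Cd209a stood at 0.62, 0.72 and 0.83 and 5.99, 4.18 and 5.93 (-4.64 ± 0.51, adjusted p = 0.00135). TAMs had almost none of these transcripts, while all MTM libraries had them. Cd209a, Cd209e, Cd209d and Cd209b are consecutive measured genes at chr8:3743397-3926844 (GRCm38), a run noticed after the values were seen, and the remaining 2 stood at 3.29, 2.22 and 2.73 (Cd209b) and 3.04, 1.65 and 2.97 (Cd209e) in MTMs and at or under 0.23 in TAMs. Reads from such similar genes can be split between them, so the share of each is uncertain. Clec4b1 stood at 3.21, 3.61 and 2.97 in TAMs and 7.36, 7.02 and 7.11 in MTMs (-3.90 ± 0.21, adjusted p = 3.36e-05), and Clec10a and Mgl2, a pair of galactose-type lectins, gave -3.72 ± 0.30 and -3.72 ± 0.38 (adjusted p = 0.000286 and 0.000817). Cd209a and Mgl2 are also on the dendritic cell list. Its mean level was 2.09 to 2.33 in TAMs and 2.41 to 2.51 in MTMs. Of its 23 measured members, 3 were lower (Naaa, Cd209a and Mgl2) and 2 were higher (Siglech and Runx3). The list's median difference was 0.07. Losses of the calls of Naaa and Siglech under other settings are not given here. The part of dendritic cells in these lectin differences was not tested. The one lectin that was higher in TAMs was Cd207, langerin, at 3.19, 3.22 and 2.60 in TAMs and 1.54, 1.81 and 0.89 in MTMs (1.59 ± 0.29, adjusted p = 0.0187), and its call was lost without any 1 of the TAM libraries of mice 1 and 3 or any 1 of the MTM libraries of mice 1 and 5 (adjusted p up to 0.0896).

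The stretches before the starts of 4 of these genes are shown because they belong to the largest fall (Retnla), to the Cd209 run, and to the integrin that marks TAMs (Itgax). Each is the 250 bases before the RefSeq start in GRCm38.p6, written in the direction of the gene, and the GENCODE models of Retnla and Itgax start slightly earlier, within their windows. Capitals mark every match on either strand to TTCNNNNGAA, the palindrome bound by STAT6-type factors, or to TGCTGA, the core of the Maf recognition element, which reads TCAGCA on the opposite strand. Retnla lies on the plus strand at chr16:48842359-48842608, Cd209d on the minus strand at chr8:3878500-3878749, Cd209a on the minus strand at chr8:3748985-3749234 and Itgax on the plus strand at chr7:128129300-128129549.
Retnla: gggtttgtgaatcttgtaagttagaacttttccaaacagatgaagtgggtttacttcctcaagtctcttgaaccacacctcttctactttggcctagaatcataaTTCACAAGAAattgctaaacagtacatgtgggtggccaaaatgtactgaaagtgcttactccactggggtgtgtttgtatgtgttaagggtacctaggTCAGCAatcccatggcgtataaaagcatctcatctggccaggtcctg
Cd209d: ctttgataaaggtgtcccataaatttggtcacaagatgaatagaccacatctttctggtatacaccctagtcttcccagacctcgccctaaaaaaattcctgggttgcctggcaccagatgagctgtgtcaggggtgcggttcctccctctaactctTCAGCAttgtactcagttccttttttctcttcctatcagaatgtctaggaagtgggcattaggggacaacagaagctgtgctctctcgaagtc
Cd209a: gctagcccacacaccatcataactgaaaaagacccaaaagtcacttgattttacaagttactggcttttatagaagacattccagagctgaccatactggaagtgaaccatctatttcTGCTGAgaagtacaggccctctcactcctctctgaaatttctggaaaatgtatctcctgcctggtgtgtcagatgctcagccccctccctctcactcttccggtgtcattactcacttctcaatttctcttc
Itgax: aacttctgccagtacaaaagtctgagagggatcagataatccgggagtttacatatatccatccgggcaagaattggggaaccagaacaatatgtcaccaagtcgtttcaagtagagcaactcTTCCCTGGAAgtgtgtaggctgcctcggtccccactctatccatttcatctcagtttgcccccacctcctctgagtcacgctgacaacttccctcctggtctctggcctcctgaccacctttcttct
The Retnla window holds 1 match to each motif, beginning 145 and 47 bases before the start. Each Cd209 window holds 1 match to the Maf core, and the Itgax window 1 match to the STAT6-type palindrome, beginning 127 bases before the start. A match describes letters only and shows no binding.

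Over all windows, the Maf core was present in 16.8% of the 12832 measured genes with a window, in 26.4% of 201 genes lower in TAMs and in 16.5% of 97 genes higher in TAMs. The STAT6-type palindrome was present in 5.80%, 7.96% and 4.12%. Of the 13 motifs searched on both strands, GAGGAA, a core of PU.1 sites, was at 26.2% of all windows, 37.3% of the lower and 35.1% of the higher genes, and the related GGAAGT at 25.6%, 31.8% and 29.9%. The composite GGAANNGAAA of PU.1-type and interferon regulatory factors stood at 2.47%, 6.97% and 4.12%, and the AP-1 motif TGANTCA at 6.48%, 11.9% and 9.28%. Shares of GGGANNNNCC (NF-kB type) were 25.1%, 29.9% and 35.1%, and those of TATAAA (the TATA box) 9.50%, 12.4% and 10.3%. CACCC (Kruppel-like factors) gave 61.2%, 63.7% and 63.9%, GAAANNGAAA (interferon response) 3.34%, 3.98% and 3.09%, and TTGCGNAA (C/EBP type) 1.04%, 1.49% and 0%. The RBPJ core TGGGAA stood at 24.7%, 24.4% and 23.7%, and its longer form GTGGGAA, which contains it, at 6.67%, 6.47% and 7.22%. Several of these motifs overlap each other in sequence, genes of a cluster share promoter sequence, and no test was made on the shares.

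Genes of alternative activation, the programme that IL-4 and IL-13 set off in macrophages, were lower at 8 of 26 measured (30.8%, against 1.63% of all genes), with none higher. Most of the 8 are also on the resident list. Ear2, an eosinophil-type ribonuclease with close paralogs, stood at 0.66, 0.45 and 0.61 in TAMs and 5.83, 4.88 and 4.69 in MTMs (-4.56 ± 0.35, adjusted p = 0.000235). Irf4, a transcription factor of this programme, was near the detection limit in TAMs at 0.05, 0.08 and 0.12 and low in MTMs at 0.74, 0.59 and 0.74 (-0.61 ± 0.07, adjusted p = 0.00197). Arg1, arginase, stood at 4.49, 6.41 and 4.20 in TAMs and 6.43, 7.00 and 7.63 in MTMs, with all MTM libraries above all TAM libraries by a small margin, and did not pass (adjusted p = 0.111). Chi3l3, a chitinase-like protein, also did not pass, at 1.16, 0.99 and 0.46 and 4.18, 1.62 and 2.17 (adjusted p = 0.219).

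Chemokines that passed were all lower in TAMs. Of 20 CC chemokines measured, 5 were lower in TAMs (25%, against 1.63% of all genes) and none was higher, although the list's median difference was -0.01. Ccl8, which attracts monocytes and lymphocytes, stood at 5.27, 5.27 and 5.77 in TAMs and 10.18, 10.55 and 11.17 in MTMs (-5.20 ± 0.63, adjusted p = 0.00222). Ccl24, an attractant of eosinophils, stood at 0.46, 0.24 and 0.04 and 5.45, 4.24 and 4.99 (-4.65 ± 0.28, adjusted p = 7.2e-05). In each mouse the TAM library lay far below the MTM library for both. The monocyte attractants Ccl7 and Ccl2 were lower at -3.43 ± 0.55 and -2.31 ± 0.46 (adjusted p = 0.0112 and 0.0328). Ccl2, Ccl7 and the weakly expressed Ccl11 lie next to each other among the measured genes, at chr11:82035571-82062955. The call of Ccl7 was lost without the MTM library of mouse 5 (adjusted p = 0.0565), and that of Ccl2 was lost without any 1 of the TAM libraries of mice 1 and 3, any 1 of the MTM libraries of mice 3 and 5, the MYC TAM library of mouse 4 or any 1 of the MYC MTM libraries of mice 2 and 4 (adjusted p up to 0.124). Ccl11 lost its call without any 1 of the TAM libraries of mice 1, 3 and 5, any 1 of the MTM libraries of mice 1 and 3, any 1 of the MYC TAM libraries of mice 2, 4 and 6 or any 1 of the MYC MTM libraries of mice 2 and 4 (adjusted p up to 0.196) and with the mouse as a block (adjusted p = 0.145). Cxcl13, which guides B cells, stood at 0.05, 0.05 and 0.61 in TAMs and 5.48, 3.60 and 5.10 in MTMs (-4.50 ± 0.49, adjusted p = 0.00133). Its TAM libraries of mice 1 and 3 shared the lowest value listed for the gene. In all, 3 of 14 CXC chemokines measured were lower (21.4%, against 1.63% of all genes) and none was higher.

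A few inflammatory genes lay the other way without passing. Ccl3, which draws in monocytes and T cells, stood at 7.27, 8.22 and 8.61 in TAMs and 6.10, 6.98 and 7.27 in MTMs (adjusted p = 0.277). Il1b, the inflammatory cytokine IL-1 beta, stood at 8.29, 8.74 and 9.59 and 5.57, 7.57 and 7.19 (adjusted p = 0.0937). For Il1b all 3 TAM libraries were above all 3 MTM libraries, and within each cell type mouse 1 was the lowest. Both genes were picked after their values were seen.

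Complement genes, whose products tag particles for uptake or lysis, were lower in TAMs at 8 of 34 measured (23.5%, against 1.63% of all genes). The 1 higher gene (2.94%, against 0.744%) was Itgax, a chain of complement receptor 4, described with the integrins. Cfp, properdin, which stabilizes the alternative pathway convertase, stood at 5.91, 6.16 and 5.81 in TAMs and 10.66, 9.34 and 10.26 in MTMs (-4.13 ± 0.36, adjusted p = 0.000425). C4b, of the classical and lectin pathways, stood at 6.37, 6.54 and 5.97 and 10.03, 8.98 and 9.38 (-3.17 ± 0.37, adjusted p = 0.00197). Its near copy C4a passed as well, and reads may be shared between them. C6, a part of the membrane attack complex, stood at 0.24, 0.19 and 0.11 and 2.85, 2.63 and 2.81 (-2.59 ± 0.17, adjusted p = 0.000104). Fcna, ficolin A, a sugar-binding starter of the lectin pathway, stood at 1.45, 1.77 and 2.63 and 7.35, 6.05 and 6.68 (-4.74 ± 0.61, adjusted p = 0.00308). So initiators, an amplifier and a terminal component were all lower, while the C1q chains were not called.

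Clotting genes were lower at 8 of 35 measured (22.9%, against 1.63% of all genes) and higher at 1 (2.86%, against 0.744%). F7, factor VII, which starts the extrinsic pathway, stood at 0.48, 0.63 and 0.10 in TAMs and 5.90, 3.67 and 4.86 in MTMs (-4.40 ± 0.56, adjusted p = 0.00304). F10, factor X, which it activates, stood at 0.12, 0.15 and 0.14 and 4.54, 2.74 and 3.98 (-3.62 ± 0.41, adjusted p = 0.00168). TAMs were near 0 for both, and in both the MTM library of mouse 3 was the lowest. Pros1, protein S, an anticoagulant that also bridges dying cells to their receptors, stood at 6.12, 5.99 and 6.23 and 7.89, 7.31 and 7.74 (-1.53 ± 0.19, adjusted p = 0.00262), and S100a10, a plasminogen receptor subunit, gave -2.75 ± 0.31 (adjusted p = 0.00169). The platelet chemokine genes Pf4 and Ppbp gave -2.36 ± 0.43 and -0.88 ± 0.16 (adjusted p = 0.0202 and 0.0187). Both are on the erythroid and platelet list, whose mean level overlapped between TAMs (1.60 to 2.49) and MTMs (1.50 to 2.30). The call of Pf4 was lost without any 1 of the TAM libraries of mice 1, 3 and 5 or any 1 of the MTM libraries of mice 1, 3 and 5 (adjusted p up to 0.0822), and that of Ppbp was lost without any 1 of the TAM libraries of mice 1, 3 and 5 (adjusted p up to 0.0829) and with the mouse as a block (adjusted p = 0.0779). F11r, a junction adhesion molecule placed on this list by its symbol, was higher at 0.81 ± 0.14 (adjusted p = 0.0136), and lost its call without the TAM library of mouse 1 or any 1 of the MTM libraries of mice 1 and 5 (adjusted p up to 0.0662) and with the mouse as a block (adjusted p = 0.0883).

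Genes of lipid mediators, 31 measured, were lower in TAMs at 7 (22.6%, against 1.63% of all genes), from both the leukotriene and the prostanoid branch. They were higher at 1 (3.23%, against 0.744%). Alox5, 5-lipoxygenase, the first enzyme of leukotriene synthesis, stood at 1.23, 1.28 and 1.41 in TAMs and 5.41, 4.95 and 4.84 in MTMs (-3.76 ± 0.25, adjusted p = 0.000104). Alox5ap, its partner protein, stood at 8.01, 8.18 and 8.46 and 9.78, 9.42 and 9.57 (-1.37 ± 0.24, adjusted p = 0.0167), and Ltb4r1, the leukotriene B4 receptor, at 0.38, 0.25 and 0.20 and 3.46, 1.73 and 2.83 (-2.40 ± 0.37, adjusted p = 0.00875). Enzyme, partner and receptor were thus lower together, with Alox5ap still abundant in TAMs. On the prostanoid side, Tbxas1, thromboxane synthase, stood at 4.12, 3.88 and 4.35 in TAMs and 5.28, 4.91 and 5.18 in MTMs (adjusted p = 0.0266). The prostaglandin receptors Ptger2 and Ptgir were lower at -1.04 ± 0.19 and -0.74 ± 0.16 (adjusted p = 0.02 and 0.0499), as was the phospholipase gene Pla2g2d at -1.21 ± 0.25 (adjusted p = 0.0351). Each of these 4 calls was lost without any 1 of the TAM libraries of mice 1 and 3 or the MTM library of mouse 5 (adjusted p up to 0.118, 0.0974, 0.184 and 0.124 in the order given). Those of Tbxas1 and Ptgir were also lost without the MTM library of mouse 1, and those of Ptgir and Pla2g2d without the TAM library of mouse 5. Tbxas1, Ptgir and Pla2g2d also lost theirs under quantile normalization and without either MYC MTM library. With the mouse as a block those of Ptger2, Ptgir and Pla2g2d were lost (adjusted p = 0.0969, 0.115 and 0.0692). Ptgs1, cyclooxygenase 1, was the rise and stood at 6.99, 6.39 and 6.47 in TAMs and 5.57, 5.39 and 5.11 in MTMs (1.26 ± 0.21, adjusted p = 0.014). The call of Alox5ap was lost without any 1 of the TAM libraries of mice 1 and 3 or any 1 of the MTM libraries of mice 1 and 5 (adjusted p up to 0.088), and that of Ptgs1 was lost without the TAM library of mouse 1 or the MTM library of mouse 5 (adjusted p up to 0.0678).

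Matrix genes moved in both directions, with 7 of 66 measured lower (10.6%, against 1.63% of all genes) and 4 higher (6.06%, against 0.744%). Fn1, fibronectin, stood at 4.21, 3.62 and 3.25 in TAMs and 10.65, 7.75 and 9.67 in MTMs (-5.67 ± 0.60, adjusted p = 0.00104). Its MTM libraries were spread widely, with mouse 3 the lowest and mouse 1 the highest. The metalloproteinase genes Mmp19 and Mmp9 gave -3.77 ± 0.40 and -2.11 ± 0.27 (adjusted p = 0.00113 and 0.00336). Hpse, heparanase, which cuts heparan sulfate, stood at 0.75, 0.99 and 2.00 and 4.35, 3.75 and 4.69 (-3.01 ± 0.33, adjusted p = 0.00138). In the other direction, Adamdec1, a secreted disintegrin-like protease, stood at 4.86, 3.82 and 5.20 in TAMs and 0.30, 1.13 and 1.24 in MTMs (3.74 ± 0.38, adjusted p = 0.00079). Mmp2, gelatinase A, stood at 6.78, 6.20 and 6.80 and 4.01, 4.70 and 4.79 (2.09 ± 0.30, adjusted p = 0.00637). Its activator Mmp14 was higher at 0.92 ± 0.15 (adjusted p = 0.0139), a call that was lost without any 1 of the TAM libraries of mice 3 and 5 or the MTM library of mouse 1 (adjusted p up to 0.0608). Fibroblast genes, which would also bring matrix transcripts, had a mean level of 0.89 to 1.41 in TAMs and 1.09 to 1.30 in MTMs.

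Monocyte markers were lower in TAMs at 6 of 24 measured (25%, against 1.63% of all genes). Ccr2, the receptor with which monocytes leave the marrow, stood at 0.24, 0.88 and 0.61 in TAMs and 4.95, 3.51 and 4.55 in MTMs (-3.76 ± 0.34, adjusted p = 0.000506). S100a4, a calcium-binding protein, stood at 1.09, 1.01 and 0.61 and 4.06, 3.12 and 3.25 (-2.57 ± 0.26, adjusted p = 0.000935). Ifitm6, an interferon-induced membrane protein gene of myeloid cells, stood at 0.60, 0.31 and 0.17 and 6.50, 4.52 and 5.48 (-5.14 ± 0.41, adjusted p = 0.00027). The 3 remaining members were F10, Fn1 and S100a6, whose call was lost without the TAM library of mouse 1 or the MTM library of mouse 1 (adjusted p up to 0.0589). Ly6c2, part of the antigen the gate removed, was low in both populations (0.23, 0.27 and 0.38 in TAMs and 0.47, 0.92 and 0.34 in MTMs) and did not pass (adjusted p = 0.558). Itgal, the alpha chain of LFA-1, was the one member that was higher. The part of monocytes in these differences was not tested.

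Both lysozyme genes were lower, Lyz1 with a far larger difference than Lyz2. Lyz1 stood at 4.69, 4.17 and 4.75 in TAMs and 11.30, 9.11 and 9.96 in MTMs (-5.59 ± 0.50, adjusted p = 0.00049). Lyz2 stood at 12.62, 12.36 and 12.96 and 14.44, 14.29 and 14.19 (-1.66 ± 0.33, adjusted p = 0.0326), and its call was lost without any 1 of the TAM libraries of mice 1, 3 and 5, any 1 of the MTM libraries of mice 1 and 5, the MYC TAM library of mouse 4 or any 1 of the MYC MTM libraries of mice 2 and 4 (adjusted p up to 0.169) and with the mouse as a block (adjusted p = 0.0728). These near-identical neighbours can share reads, so the size of each difference is uncertain. Pltp, the phospholipid transfer protein, stood at 5.17, 4.20 and 5.09 in TAMs and 9.58, 8.08 and 9.03 in MTMs (-4.07 ± 0.41, adjusted p = 0.000775). Ms4a8a, a membrane-spanning protein gene, stood at 1.27, 0.24 and 1.01 and 7.30, 5.75 and 6.72 (-5.75 ± 0.50, adjusted p = 0.000425). Aldh1a2, which makes retinoic acid, stood at 0.56, 0.23 and 0.30 and 5.96, 4.99 and 5.14 (-5.00 ± 0.38, adjusted p = 0.000235). Rgs18, a brake on G protein signalling, stood at 0.10, 0.03 and 0.03 and 4.94, 4.22 and 4.65 (-4.55 ± 0.27, adjusted p = 7.03e-05). For Aldh1a2 and Rgs18 every TAM library was close to 0, and every MTM library was well above it.

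Genes of lipid-associated macrophages, which clear lipid-rich debris in fat and tumours, were mostly not called. Of 29 measured, 3 were lower (10.3%, against 1.63% of all genes) and 1, Itgax, was higher (3.45%, against 0.744%). Gpnmb, a glycoprotein of phagosomes, stood at 3.32, 3.61 and 4.59 in TAMs and 7.15, 6.21 and 7.47 in MTMs (-3.11 ± 0.40, adjusted p = 0.00336). Spp1, osteopontin, stood at 4.64, 6.12 and 5.02 and 8.07, 7.68 and 8.78 (-2.92 ± 0.39, adjusted p = 0.00424), and its call was lost with the mouse as a block (adjusted p = 0.0505). Trem2, the lipid receptor of this programme, stood at 2.37, 1.55 and 2.59 and 2.18, 2.28 and 2.36 (adjusted p = 1), and Apoe at 10.40, 9.43 and 9.85 and 9.83, 9.38 and 9.97 (adjusted p = 1). TAM and MTM levels overlapped for both. Atp6v0d2, a proton pump subunit of osteoclasts and phagocytes, stood at 1.01, 1.00 and 1.75 in TAMs and 3.94, 3.03 and 3.92 in MTMs (-2.38 ± 0.32, adjusted p = 0.00387).

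Among the genes higher in TAMs, H2-M2, a nonclassical MHC class I gene at chr17:37480851-37483552, had the largest difference of those that passed. It stood at 5.89, 5.96 and 6.91 in TAMs and 1.40, 2.42 and 2.38 in MTMs (4.19 ± 0.37, adjusted p = 0.000425). It was the only one of 34 measured MHC class I and nonclassical genes that passed (2.94%, against 0.744% of all genes as higher). Il1r2, the decoy receptor that captures IL-1, stood at 5.62, 5.99 and 5.15 in TAMs and 1.55, 3.08 and 2.19 in MTMs (3.32 ± 0.46, adjusted p = 0.0049). Dgat2, which makes triglycerides, stood at 5.09, 5.06 and 4.66 and 2.62, 2.22 and 2.83 (2.38 ± 0.30, adjusted p = 0.00293). Zmynd15, a zinc finger gene, stood at 7.01, 6.51 and 6.51 and 4.89, 4.31 and 4.32 (2.17 ± 0.21, adjusted p = 0.000721). All of these had reads in MTMs, so the difference was one of degree.

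Integrins and adhesion molecules were the list with the most rises, 6 of 51 measured (background 0.744%), with 1 fall. Itgax, CD11c, stood at 8.66, 8.54 and 8.39 in TAMs and 6.28, 6.31 and 6.16 in MTMs (2.28 ± 0.31, adjusted p = 0.00399). The libraries of each type lay close together. Itgal, the LFA-1 alpha chain with which leukocytes bind ICAM1, stood at 6.17, 6.53 and 6.29 and 4.12, 4.91 and 4.39 (1.86 ± 0.21, adjusted p = 0.00168). Itga8, an RGD-binding integrin chain, stood at 2.74, 2.94 and 2.77 and 1.47, 1.67 and 1.70 (1.20 ± 0.16, adjusted p = 0.00344). Itgam, CD11b, the partner of the same beta chain as Itgax, was the fall, at 5.27, 4.72 and 5.54 in TAMs and 7.12, 6.58 and 6.50 in MTMs (-1.56 ± 0.27, adjusted p = 0.016). Its call was lost without any 1 of the TAM libraries of mice 1 and 3 or the MTM library of mouse 1 (adjusted p up to 0.0686). CD11c and CD11b transcripts thus differed in opposite directions between the same cells.

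Several of the rises were genes also used by lymphocytes. Il2ra, the alpha chain of the IL-2 receptor, stood at 3.88, 3.87 and 2.88 in TAMs and 0.59, 1.00 and 0.50 in MTMs (2.84 ± 0.27, adjusted p = 0.000594). Tespa1, an adaptor of T cell receptor signalling, stood at 2.89, 3.22 and 2.48 and 0.70, 0.70 and 0.46 (2.25 ± 0.21, adjusted p = 0.000585). Klrb1b, an NK cell lectin receptor, stood at 3.19, 4.14 and 3.10 and 1.23, 1.86 and 1.48 (1.96 ± 0.31, adjusted p = 0.00946). Beside them, the T and NK cell list was 1.36 to 2.02 in TAM libraries and 0.91 to 1.13 in MTM libraries, and Cd3d was highest in the TAM library of mouse 1. Klrb1b was highest in the TAM library of mouse 3, and Il2ra was alike in mice 1 and 3. Cd2, a T cell adhesion molecule, went the other way, at 2.71, 1.46 and 1.57 in TAMs and 5.25, 4.17 and 4.77 in MTMs (-2.82 ± 0.46, adjusted p = 0.0118), and its call was lost without any 1 of the TAM libraries of mice 3 and 5 or any 1 of the MTM libraries of mice 1 and 5 (adjusted p up to 0.0584). The part of T and NK cells in the rises was not tested.

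Genes of antigen presentation by MHC class II leaned towards TAMs, mostly without passing. Of 15 genes measured, 8 lay higher without overlap (against 6.9% of all genes), and the median difference was 0.33. Only 1 passed, as higher (against 0.744% of all genes). That gene was H2-Oa, a chain of the HLA-DO type molecule that restrains peptide loading, at 3.57, 3.22 and 2.83 in TAMs and 0.81, 1.48 and 0.49 in MTMs (2.28 ± 0.28, adjusted p = 0.00272). The abundant Cd74, the invariant chain, stood at 15.57, 15.45 and 14.98 in TAMs and 14.79, 13.83 and 14.40 in MTMs (adjusted p = 0.427), and H2-Ab1 at 13.60, 13.39 and 12.93 and 12.60, 12.02 and 12.43 (adjusted p = 0.475). For both, the TAM libraries lay above the MTM libraries in all 3 mice without passing.

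Transcription factors of macrophages were mostly not called, and the largest rise was 1.06. Of 75 measured, 3 were higher (4%, against 0.744% of all genes) and 1, Irf4, was lower (1.33%, against 1.63%). Irf8, a lineage factor of monocytes and dendritic cells, stood at 5.82, 5.65 and 5.59 in TAMs and 4.62, 4.54 and 4.71 in MTMs (1.06 ± 0.12, adjusted p = 0.00168). Runx3 and the weakly expressed Tbx21, both also factors of cytotoxic lymphocytes, gave 0.95 ± 0.18 and 0.48 ± 0.09 (adjusted p = 0.0266 and 0.0193). The call of Runx3 was lost without any 1 of the TAM libraries of mice 1, 3 and 5, any 1 of the MTM libraries of mice 1 and 5 or any 1 of the MYC MTM libraries of mice 2 and 4 (adjusted p up to 0.121) and with the mouse as a block (adjusted p = 0.115), and that of Tbx21 was lost without any 1 of the TAM libraries of mice 1 and 3 or any 1 of the MTM libraries of mice 1 and 3 (adjusted p up to 0.0924) and with the mouse as a block (adjusted p = 0.0696). The list of Notch genes, a pathway known to act in mammary TAMs, was higher at 3 of 31 measured (9.68%, against 0.744% of all genes) and lower at none. They were Psen2, a catalytic subunit of gamma secretase, at 5.39, 5.16 and 5.23 in TAMs and 4.24, 4.08 and 4.14 in MTMs (1.11 ± 0.13, adjusted p = 0.00184), the regulator Dtx4 at 1.28 ± 0.27 (adjusted p = 0.0433), and Il2ra. The last is a cytokine receptor chain that is also counted with the cytokines. The call of Dtx4 was lost without any 1 of the TAM libraries of mice 1, 3 and 5, any 1 of the MTM libraries of mice 1 and 3, any 1 of the MYC TAM libraries of mice 4 and 6 or any 1 of the MYC MTM libraries of mice 2 and 4 (adjusted p up to 0.145) and with the mouse as a block (adjusted p = 0.089).

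Cytokines and their receptors were higher at 3 of 52 measured (5.77%, against 0.744% of all genes) and lower at 4 (7.69%, against 1.63%). Tnfsf13b, BAFF, a survival factor for B cells, stood at 7.13, 6.85 and 6.58 in TAMs and 5.00, 5.30 and 4.76 in MTMs (1.83 ± 0.21, adjusted p = 0.00168). Tnfsf8, the CD30 ligand, stood at 2.07, 2.38 and 2.50 and 0.76, 1.19 and 1.14 (1.29 ± 0.20, adjusted p = 0.00894). Il15, a growth factor for NK and memory T cells, was lower, at 2.67, 2.61 and 2.71 and 3.84, 4.05 and 3.77 (-1.22 ± 0.19, adjusted p = 0.0105), and its call was lost with the mouse as a block (adjusted p = 0.0779). Fas, the death receptor, was lower at 2.14, 2.46 and 2.40 and 3.87, 4.05 and 4.12 (-1.68 ± 0.21, adjusted p = 0.00304). The survival factor for B cells was thus higher in TAMs. The B and plasma cell list had no call, but the gate removed B220+ cells from both populations. That list therefore cannot show whether B cells of the tumour differed.

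Lysosomal genes, 59 measured, were called at 2 in each direction (3.39% each, against 0.744% of all genes higher and 1.63% lower). Their median difference was 0.00. Acp5, the tartrate-resistant acid phosphatase known from osteoclasts, was the clearest rise, at 8.98, 8.33 and 8.56 in TAMs and 6.84, 6.91 and 6.74 in MTMs (1.79 ± 0.17, adjusted p = 0.000652). Ocstamp, which takes part in the fusion of osteoclasts, stood at 2.94, 3.29 and 3.08 and 0.65, 0.90 and 0.81 (2.32 ± 0.15, adjusted p = 0.000104). Its partner Dcstamp, picked after its values were seen, stood at 2.82, 3.04 and 2.06 and 1.10, 1.17 and 0.95 (1.57 ± 0.24, adjusted p = 0.0084). These 3 osteoclast-type genes were higher in TAMs, while Atp6v0d2, known from the same cells, was lower.

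Cholesterol genes under the liver X receptors, 37 measured, were called at 2 in each direction (5.41% each, against 0.744% of all genes higher and 1.63% lower). Abcg1, a cholesterol exporter, stood at 5.93, 5.64 and 6.16 in TAMs and 4.08, 4.07 and 4.08 in MTMs (1.83 ± 0.40, adjusted p = 0.0476), and Pltp was the larger fall, as given above. The call of Abcg1 was lost without any 1 of the TAM libraries of mice 1, 3 and 5, any 1 of the MTM libraries of mice 1, 3 and 5, any 1 of the MYC TAM libraries of mice 2 and 4 or any 1 of the MYC MTM libraries of mice 2 and 4 (adjusted p up to 0.164). Fatty acid and lipid droplet genes, 49 measured, had 1 rise (Dgat2) and 1 fall (Acaa2, -0.76 ± 0.16, adjusted p = 0.0392), 2.04% each. Glycolysis and hypoxia genes, 40 measured, had 1 fall (2.5%), Pfkp (-1.07 ± 0.20, adjusted p = 0.0245), and a median difference of 0.00. The calls of both were lost with the mouse as a block (adjusted p = 0.0696 and 0.115) and without any 1 of the TAM libraries of mice 1, 3 and 5, any 1 of the MTM libraries of mice 1 and 5 or any 1 of the MYC MTM libraries of mice 2 and 4 (adjusted p up to 0.161 and 0.109 for the control libraries).

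Some programmes showed no call at all. None of 43 proliferation genes passed, with a median difference of -0.26, nor did any of 43 genes of amino acid transport and the ATF4 response (median 0.13). Mki67, the proliferation antigen, stood at 1.00, 1.65 and 1.54 in TAMs and 1.87, 2.24 and 1.93 in MTMs (adjusted p = 0.213). Interferon-stimulated genes, 50 measured, had 4 falls (8%, against 1.63% of all genes) and a list median of 0.05. Among the falls were Ifitm6 and Ifitm2 (7.38, 7.66 and 7.41 in TAMs and 9.69, 9.33 and 9.56 in MTMs, -2.04 ± 0.25, adjusted p = 0.00262). Iron and heme genes, 32 measured, had 1 fall (3.1%), Cd163. Toll-like and pattern receptors, 34 measured, had 2 falls (5.88%), Tlr5 (-0.53 ± 0.11, adjusted p = 0.0326) and Irak3 (-1.39 ± 0.26, adjusted p = 0.0221). The call of Tlr5 was lost without any 1 of the TAM libraries of mice 1, 3 and 5, any 1 of the MTM libraries of mice 1 and 5 or the MYC TAM library of mouse 2 (adjusted p up to 0.129) and with the mouse as a block (adjusted p = 0.13), and that of Irak3 was lost without any 1 of the TAM libraries of mice 1 and 3, any 1 of the MTM libraries of mice 3 and 5 or the MYC TAM library of mouse 4 (adjusted p up to 0.102) and with the mouse as a block (adjusted p = 0.0593). Guidance genes, 46 measured, had 3 rises (6.52%, against 0.744% of all genes), with Sema4b at 3.98, 4.40 and 4.00 in TAMs and 2.39, 2.33 and 2.05 in MTMs (1.87 ± 0.25, adjusted p = 0.00364).

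**Figure D4:**
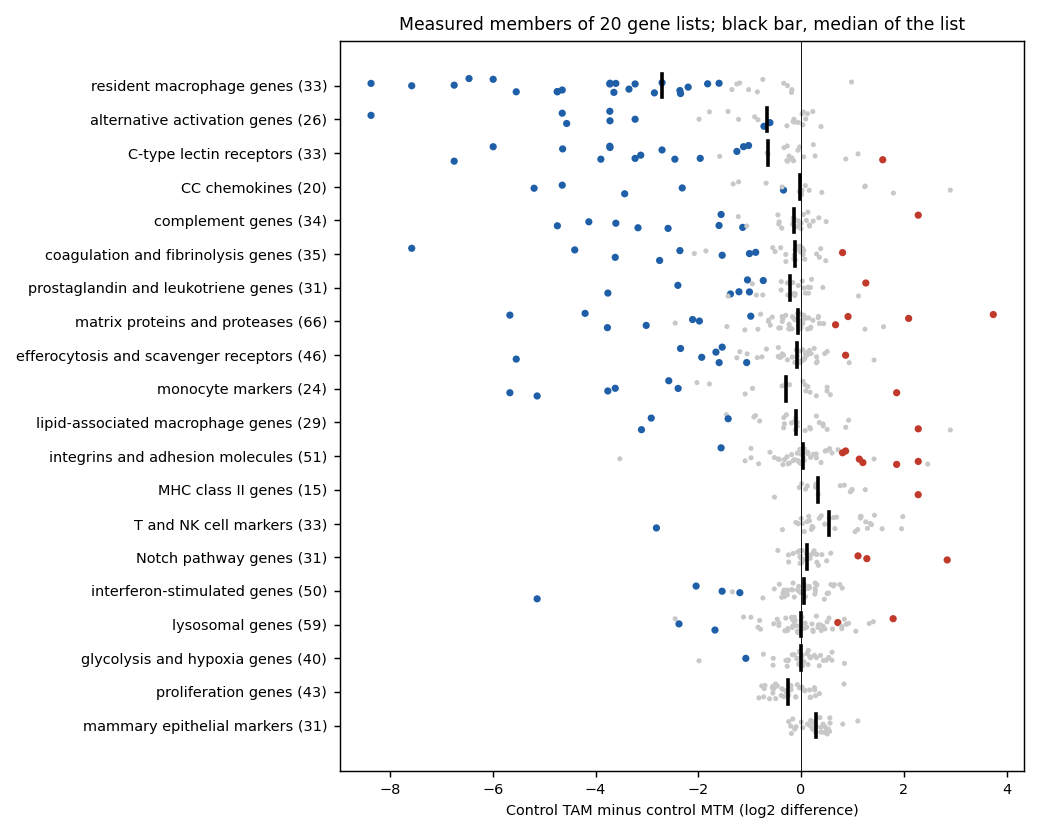
Each point is a measured member of a gene list at its TAM minus MTM difference (log2) in control mice, red or blue where it passed as higher or lower and grey where it did not, with the number of members after the name and a black bar at the list median. The resident list lies furthest to the left, with 22 of 33 members lower and a median of -2.71, while the proliferation and epithelial lists hold grey points only.

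In the MYC mice, the genes lower in control TAMs mostly had the same sign. The genes higher in control TAMs had it about as often as all genes did when every library was used. The MYC contrast uses 3 TAM and 2 MTM libraries that the control contrast does not, although one estimate of the spread serves both. In it 784 genes (4.49%) passed, 116 higher and 668 lower. With the spread taken from the MYC libraries alone, 90 genes (0.515%) passed. Of the 284 genes lower in control TAMs, 255 (89.8%) were also below 0 in MYC mice and 125 (44.0%) passed as lower there. Over all genes 51.8% were below 0 and 3.82% passed as lower, and over genes averaging at least 1 67.4% were below 0. Of the 130 genes higher in control TAMs, 104 averaged at least 1. In MYC mice 60 of the 130 (46.2%) were above 0, 6 (4.62%) passed as higher and 7 passed as lower. The background was 48.1% above 0 over all genes, 32.6% over those of a mean of at least 1, and 0.664% passing as higher. The share above 0 among the 104 alone was not counted, so the 60 of 130 has no background matched by level. The TAM library of MYC mouse 4 stood apart, where 517 genes were listed without a read, compared with 2000 to 3219 elsewhere. Without it the counts of the same sign were 255 of the 284 and 46 of the 130, and the background without it was not counted.

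Single genes show the pattern. Among the 20 largest falls, 19 were below 0 in MYC mice and 16 passed, with Retnla at -8.12 (adjusted p = 0.0011), Cd209f at -4.92 (adjusted p = 0.000188) and Cd163 at -5.36 (adjusted p = 0.00121). F7 was the one gene above 0, at 0.41 (adjusted p = 0.776). Among the 20 largest rises, 7 were above 0 and 1 passed, Itgax at 1.97 (adjusted p = 0.0124). H2-M2, Adamdec1 and Il1r2 were at 0.98, 0.02 and 0.09 (adjusted p = 0.262, 0.99 and 0.954). Haao and Zmynd15 passed in the opposite direction, at -2.29 and -1.50 (adjusted p = 0.00587 and 0.00787), as did Gpnmb and Atp6v0d2, which were lower in control TAMs and higher in MYC TAMs (2.30 and 1.56, adjusted p = 0.0216 and 0.039). The difference between the genotypes, tested as an interaction at all genes, passed at 216 genes (1.24%), with a more positive control difference at 80.6% of them, or at 70.5% of 129 genes after centring each library on its median. It passed at 31 genes in the model with the mouse as a block, without the MTM library of MYC mouse 2 at 21, and without the MTM library of MYC mouse 4 at 31.

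**Figure D5:**
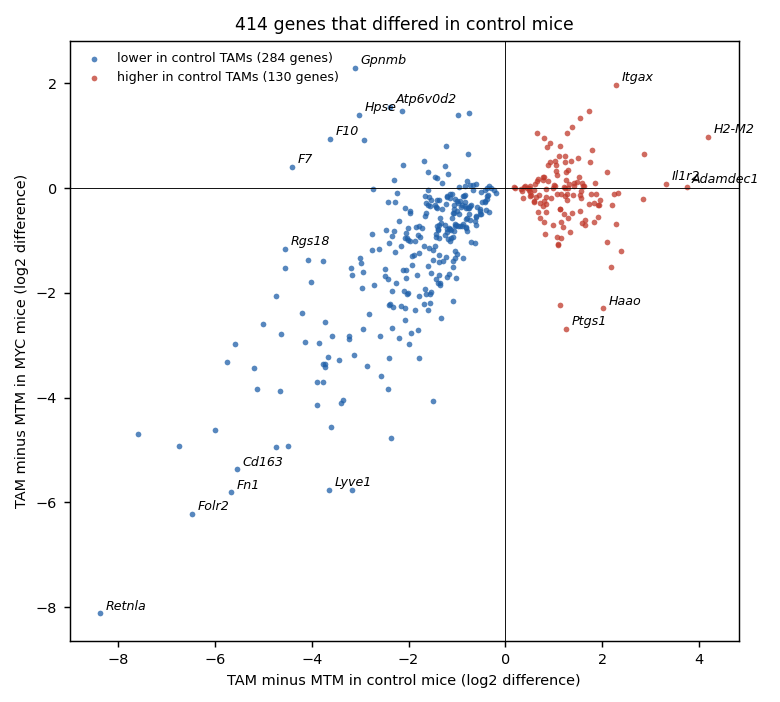
Each point is 1 of the 414 genes that differed in control mice, with the TAM minus MTM difference (log2) in control mice on the horizontal axis and in MYC mice on the vertical axis. Of the genes lower in control TAMs (blue), 255 of 284 lie below 0 on the vertical axis, while of those higher in control TAMs (red) 60 of 130 lie above 0.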

How the data were processed

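Messenger RNA was sequenced from sorted macrophages in 11 libraries of 4 groups, from 500 ng of RNA (integrity numbers 3.3 to 9.6), by a stranded poly-A method with 8 cycles of PCR, per the labels' protocols. Per the submitters' processing notes, HISAT2, mm10 (GRCm38.p5) and DESeq2 were used, with no role or version taken from them, and how strands were counted is not given in the sources used here. The authors deposited log2 expression values of 17475 genes. Their scale, inferred from the values, is the log2 of 1 plus reads scaled for depth and length: 99.95% of 10576 low values were whole reads within a tolerance of 0.05. Depths follow from it and cover counting error only. No filter was applied, and the 1 of the scale served as pseudocount.

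A limma 3.58.1 (R 4.3.3) model with a mean per group was fitted to all 11 libraries, with a variance trend and no block. P-values are two-sided, with Benjamini-Hochberg adjustment across all genes and a threshold of 0.05, and the procedure was tested on simulated data. Python 3.11.15, pandas 2.3.3, numpy 2.4.6 and matplotlib 3.10.9 made tables and figures. TAMs and MTMs of a number come from 1 mouse per the labels. Their deviations from the group means correlated at 0.18, 0.21 and 0.08 across genes, against -0.19 to 0.01 for different mice. Among replicates, the SD of log2 differences over the 1729 genes averaging at least 5 was 0.485 to 0.598, so none was a copy.

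The comparison, the 47 gene lists (1343 different genes measured) and the naming rule were chosen with earlier results of these data known. The rule took the 20 largest rises and falls among genes that passed without overlap, up to 4 passing genes per list and direction by adjusted p, the 2 most abundant members per list that did not pass, the gate genes, and Myc and S100a8, 222 genes in all, of which 4 are not reported here. Other names are said to be picked later, or are counted members of a list, among them those mentioned as not passing. Left out of naming were 26 entries turned into dates or numbers and 64 that share a symbol. Positions are from the GENCODE M21 annotation of GRCm38 and promoters from RefSeq. Alternatives were the mouse as a block, other scalings, pseudocount, filter and variance settings, and each library left out.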

Additional observations from a re-analysis of the deposited data

Results flagged for a closer look

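The difference between TAMs and MTMs was tested between control and MYC mice as an interaction (limma, adjusted over all genes), and 34 of the named genes passed. The values are control difference minus MYC difference, on the log2 scale. The test uses the same control difference that chose these genes, which pushes the values towards the sign of that difference. Their number thus says nothing about how common such genes are, and their signs are no separate result. The MYC MTM group has 2 libraries.

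The MTM-high genes with a more negative control difference were Gpnmb (-5.40), F7 (-4.81), F10 (-4.56), Hpse (-4.42), Atp6v0d2 (-3.93), Spp1 (-3.83), Rgs18 (-3.40), Ear2 (-3.05), F13a1 (-2.89), Mmp8 (-2.38), Mcoln2 (-2.20) and Il15 (-2.04). F13a1 passed as lower in MYC TAMs too (-4.69), and Gpnmb passed as higher there (2.30). Abca9 had a positive value (2.57), since it was lower in TAMs of both genotypes and more so in MYC mice (-1.49 and -4.07). Its control call was lost without any 1 of the TAM libraries of mice 1, 3 and 5, any 1 of the MTM libraries of mice 1 and 5, any 1 of the MYC TAM libraries of mice 4 and 6 or any 1 of the MYC MTM libraries of mice 2 and 4 (adjusted p up to 0.183) and with the mouse as a block (adjusted p = 0.0857). Those of Mmp8 and Mcoln2 were lost without any 1 of the TAM libraries of mice 1, 3 and 5, any 1 of the MTM libraries of mice 1, 3 and 5 or any 1 of the MYC TAM libraries of mice 2, 4 and 6 (adjusted p up to 0.17) and with the mouse as a block (adjusted p = 0.127) for Mmp8 and without the TAM library of mouse 1 or the MTM library of mouse 5 (adjusted p up to 0.0553) for Mcoln2.

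The TAM-high genes all had positive values, the sign that their choice favours. The largest were Haao (4.32), Ptgs1 (3.95), Adamdec1 (3.72), Zmynd15 (3.67), Dgat2 (3.57), H2-M2 (3.21), Mmp2 (3.12) and Il2ra (3.05). Between 2 and 3 stood H2-Oa (2.97), Tnfsf13b (2.47), Ocstamp (2.41), Tespa1 (2.35), Asb2 (2.26), Cd207 (2.26) and Ccdc102a (2.25). Smaller values were seen for Sema4b (1.98), Itgal (1.77), Itga8 (1.70), F11r (1.68), Irf8 (1.17) and Rtn4rl1 (1.05), whose control call was lost with the mouse as a block (adjusted p = 0.072). Itgax, the TAM marker, was not among these genes (adjusted p = 0.817), nor was Retnla (adjusted p = 0.938).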

How the results depend on the processing

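Against 414 genes (130 higher, 284 lower), the mouse as a fixed replicate block gave 255 (86 and 169), 231 of them among the 414, and as a random block 542. The 6 control libraries alone gave 196 (71 and 125). With the block in those 6 limma called 0 genes (0 higher, 0 lower), with 2481 at an unadjusted p under 0.05, against 2061 in the reported model. Leaving out 1 control library gave 214 to 537 genes (65 to 156 higher, 145 to 381 lower), and leaving out 1 MYC library 322 to 452. Other settings gave 341 to 498. The interaction, 216 genes, gave 31 with the fixed block, 325 with the random block, 129 after centring on library medians, 327 of 9375 genes with a mean of 1 or more, and 21 to 301 without 1 library. The cause of these shifts was not tested, beyond fewer libraries or genes. Of 123 named genes that passed, 95 passed with the fixed block, 77 without every single control library, and 65 in the 6 control libraries, and none changed direction. With fixed differences of 1 set in simulated data for this comparison, limma called 32% to 36% of the genes, so that small differences can be missed.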

Other observations

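Enzymes of the kynurenine pathway, which breaks down tryptophan, differed in opposite directions. Haao, which opens the ring of 3-hydroxyanthranilate, stood at 5.55, 5.58 and 4.81 in TAMs (mice 1, 3 and 5) and 3.57, 3.47 and 2.83 in MTMs (2.03 ± 0.30, adjusted p = 0.0073, limma). Kmo, kynurenine 3-monooxygenase, which acts before it, stood at 0.45, 0.27 and 0.16 and 2.06, 2.03 and 2.13 (-1.78 ± 0.17, adjusted p = 0.000584). Kynu, kynureninase, stood at 2.70, 2.06 and 3.14 and 0.74, 1.01 and 0.98 (1.73 ± 0.32, adjusted p = 0.0239). The call of Kynu was lost without any 1 of the TAM libraries of mice 1 and 5, any 1 of the MTM libraries of mice 1 and 5 or the MYC TAM library of mouse 4 (adjusted p up to 0.104) and with the mouse as a block (adjusted p = 0.053). That of Haao was lost with a pseudocount of 0.1 (adjusted p = 0.073). Kmo and Kynu were picked after their values were seen.

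Runs of at least 3 consecutive measured genes that passed in 1 direction, looked for after the values were seen, numbered 6, all lower in TAMs. Beside the Cd209 and Ccl2 runs, one held the aldo-keto reductase genes Akr1c18, Akr1c13 and Akr1c12 at chr13:4132615-4279433. Akr1c18, which inactivates progesterone, stood at 0.46, 0.35 and 0.65 in TAMs and 4.54, 4.73 and 4.26 in MTMs (-4.02 ± 0.34, adjusted p = 0.000363), and these similar genes can share reads. Another held Fbxo4, AW549877, Oxct1 and C6 at chr15:3965445-4814967, and another Rnf141, Lyve1 and Mrvi1 at chr7:110800432-110982461. Of these, Akr1c12, Akr1c13, AW549877 and Mrvi1 lost their calls with the mouse as a block (adjusted p = 0.0738, 0.0725, 0.13 and 0.136), and AW549877, Oxct1, Mrvi1 and Akr1c13 lost theirs without 1 or more of the libraries left out in turn (adjusted p up to 0.187, 0.0503, 0.156 and 0.067).

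A few genes differed widely among the libraries of 1 cell type. Ccl6, a CC chemokine of myeloid cells, stood at 6.95, 4.73 and 0.16 in TAMs and 1.36, 0.69 and 1.07 in MTMs, high in the TAM libraries of mice 1 and 3 and close to 0 in mouse 5. Rpl35, a ribosomal protein gene, stood at 6.45, 7.87 and 6.28 in TAMs and 0.71, 0.34 and 6.93 in MTMs, and Srgn, the granule proteoglycan serglycin, at 5.66, 5.48 and 6.02 and 0.54, 5.70 and 0.50. Atp6v0c, the proton pump ring subunit, stood at 6.22, 6.27 and 6.42 and 6.17, 0.67 and 0.98. Each was under 1 in at least 1 library and above 5 in others, and none of the 4 passed (adjusted p = 0.772, 0.532, 0.519 and 0.518). They were picked after their values were seen.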
